A study of Mus musculus with 16 samples.

Results

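The subject is the set of Hox loci of the mouse genome, read by cluster and by position within the cluster. A locus was a member when its gene name was Hox, a cluster letter from a to d and a paralogue number. The rule found 41 of the 28432 loci, 12 in the Hoxa cluster, 11 in Hoxb, 9 in Hoxc and 9 in Hoxd, which carry 39 symbols, since a symbol can stand on 2 loci. On the mm10 build the clusters span 106 kb of chromosome 6, 174 kb of chromosome 11 (96194361 to 96368253), 116 kb of chromosome 15 (102921131 to 103036852) and 96.8 kb of chromosome 2 (74668310 to 74765142).

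The cells were mouse embryonic stem cells with a GFP knock-in at the Rx (Rax) eye field gene, taken to day 6 embryoid bodies by SFEBq, a serum-free aggregate culture that favours forebrain and eye tissue, in GMEM with 5% KSR and with 2% matrigel from day 1. The 16 samples form 4 groups: untreated WT cells, a Wdr5 knockout clone without doxycycline (KO), and the same knockout given doxycycline to induce human WDR5 from 12 h (T12, the early rescue) or from 48 h (T48, the late rescue). Each group has 2 biological duplicates, called library a and library b here, and each duplicate was sequenced in 2 runs that were summed. All knockout groups come from a single numbered clone, so clone and genotype cannot be told apart. Neither WT nor KO had doxycycline, and no group had the drug without WDR5 induction. When T12 or T48 is set against KO or WT, the drug and WDR5 therefore cannot be told apart. Between T12 and T48 the start of the drug and the start of WDR5 induction differ together, so these cannot be told apart either.

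Hox genes encode homeodomain transcription factors that give cells their position along the head to tail axis. Within a cluster the genes at the 3' end, with low paralogue numbers, come on earlier and further forward than the genes at the 5' end, a rule known as collinearity. The forebrain and the eye lie in front of every Hox domain, and the clusters are textbook targets of opposed chromatin complexes: MLL methyltransferases, which need WDR5 for full activity, and Polycomb.

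The libraries held 32476640 to 65687386 counts in named loci, and the Hox loci took 121 to 8928 of them. Wdr5 itself stood at 186 and 187 CPM (counts scaled to library size) in WT, 32.5 and 28.4 in KO, 329 and 337 in T12 and 280 and 294 in T48, and the table does not separate human WDR5 from mouse Wdr5. Rax stood at 192 and 197 CPM in WT and 223 and 215 in T12, against 0.820 and 0.755 in KO and 0.545 and 0.245 in T48. A low-count filter left 29 of the 41 Hox loci for testing. The 12 untested loci were Hoxa4, Hoxa6, Hoxa11, Hoxb13, Hoxc4, Hoxc5, Hoxc10, Hoxc11, Hoxc12, Hoxd10, Hoxd11 and Hoxd12, none above 0.490 CPM in any library, and Hoxa6 and Hoxd12 had no count at all. Of the 29 tested loci, 16 reached the filter only through the T48 libraries, which favours a higher value there. The number of tested loci higher in T48 is therefore a description and no support.

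Hox RNA was almost absent from WT and T12, low in KO and abundant in T48. The 41 loci together gave 3.88 and 3.59 CPM in the WT libraries and 3.13 and 6.65 in T12. In KO they gave 17.2 and 19.9 CPM, and in T48 210 and 219. No Hox locus averaged 1 CPM in WT or T12, 5 did in KO and 21 in T48. In aggregates, fewer cells of a type and less RNA per cell cannot be told apart.

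The make-up differed as much as the total. Levels of different genes are compared per length here, as the FPKM of the deposited table, which divides the fragments of a locus by transcript length and library size, and shares are of the summed FPKM of the 41 loci. In T48 the paralogues 1 to 4 held 66.0% ± 2.00 of it (SD, n = 2), the paralogues 5 to 8 held 26.5% ± 0.999 and the paralogues 9 to 13 held 7.44% ± 0.998. In KO the paralogues 9 to 13 held 58.6% ± 4.05 (n = 2) and the paralogues 1 to 4 29.7% ± 1.03. The Hoxb cluster supplied 69.3% and 67.6% of the T48 signal, Hoxa 17.6% and 17.1%, Hoxd 10.4% and 12.6% and Hoxc 2.59% and 2.68%. The WT and T12 shares rest on 121 to 302 counts a library and varied widely between T12 libraries, where paralogues 1 to 4 held 54.2% in a and 24.9% in b.

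**Figure D1:**
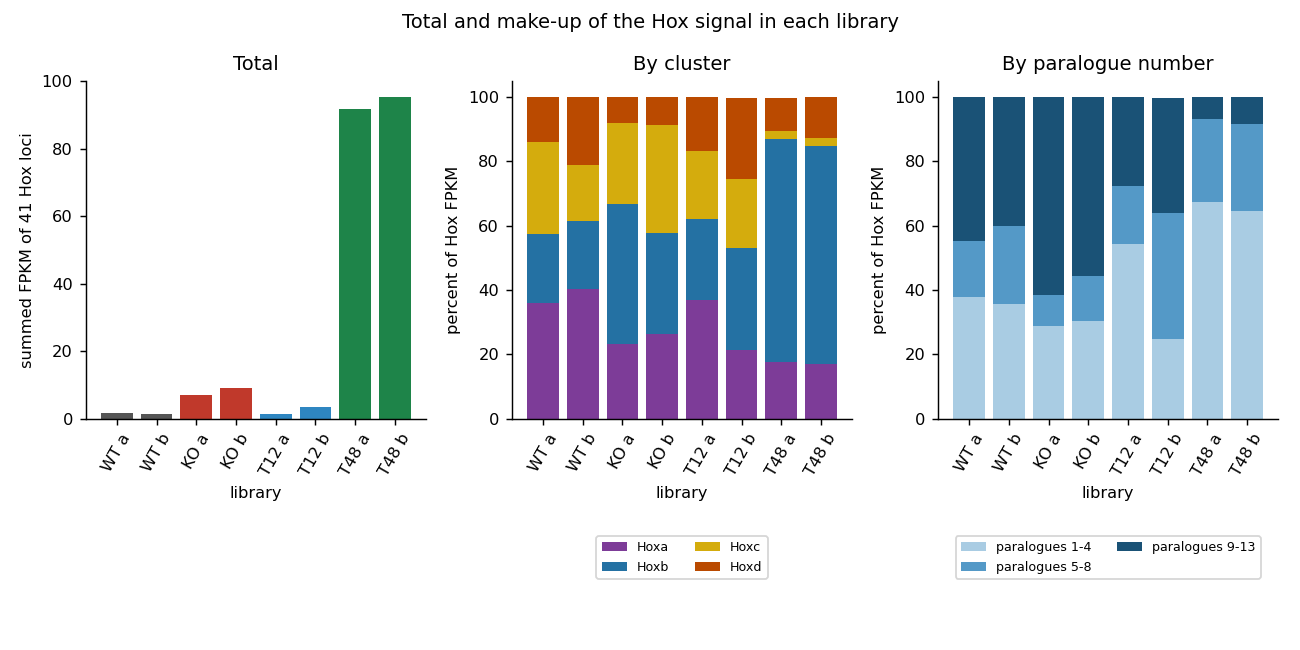
Left, bars show the summed FPKM of the 41 Hox loci in each of the 8 libraries; centre and right, bars split that sum into percent by cluster and by paralogue number. T48 stands at 91.6 and 95.3 FPKM against 6.83 and 8.91 in KO, and its bars are mostly Hoxb and mostly paralogues 1 to 4.

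The late rescue was first compared with the knockout it was made from, to ask how T48 and KO differed at day 6. Among the 29 tested Hox loci 22 were higher in T48 and 2 were lower, where 34.2% of all 16130 tested loci were called higher and 33.2% lower (edgeR quasi-likelihood test, Benjamini-Hochberg adjusted p under 0.05). Of the 13 loci that reached the filter without T48, 8 were higher and 2 lower, and their median difference was 2.97 on the log2 scale, against -0.003 over all tested loci. Over all 41 loci, both T48 libraries stood above both KO libraries at 25 and below them at 4. The like share over all loci was not worked out, so this count is only a description.

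The Hoxb cluster carried the highest values, and every Hoxb locus from Hoxb1 to Hoxb8 was higher in T48. Hoxb2, which acts in hindbrain and facial nerve patterning, stood at 43.9 and 40.5 CPM in T48, at 0.102 and 0.135 in KO, at 0.111 and 0.154 in T12 and at 0.0277 and 0.0297 in WT. It was the highest Hox locus of the study, with 25.8% of the T48 Hox FPKM, and the T48 libraries were far from all others. Its fold over KO was 369, a log2 difference of 8.49 ± 0.27 (SE; edgeR adjusted p = 3.06e-11).

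Hoxb1, the marker of the fourth hindbrain segment, stood at 8.12 and 6.59 CPM in T48, 0.0586 and 0.270 in KO, 0.0740 and 0 in T12 and 0.0277 and 0.0594 in WT. The difference from KO was 5.62 ± 0.74 on the log2 scale (edgeR adjusted p = 1.67e-05), and again no other library came near T48. Hoxb4, which acts at the hindbrain and spinal cord border and in blood stem cells, stood at 19.3 and 18.7 CPM in T48, 1.05 and 1.11 in KO, 0.352 and 0.463 in T12 and 0.139 and 0.297 in WT. Hoxb4 was the Hoxb1 to Hoxb8 locus with the most signal in KO, so its fold over KO was 17.7 (4.14 ± 0.30, edgeR adjusted p = 5.19e-08).

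Hoxb3 stands on 2 loci, XLOC_003938 and XLOC_004758, that share a symbol, so how reads were split between them is uncertain. The first gave 14.2 and 21.9 CPM in T48, 0.117 and 0.0540 in KO, 0.111 and 0.0441 in T12 and 0.166 and 0.0594 in WT. The second gave 23.1 and 19.0 CPM in T48, 0.102 and 0 in KO, 0.0740 and 0.0661 in T12 and 0.0555 and 0 in WT. Both were higher in T48 than in KO, with log2 differences of 7.56 ± 0.49 and 8.28 ± 0.54 (edgeR adjusted p = 1.69e-08 and 1.83e-08).

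The trunk members Hoxb5, Hoxb6 and Hoxb8 were silent or nearly so outside T48. Hoxb5 stood at 8.63 and 11.4 CPM in T48, at 0 in both KO libraries, at 0.0370 and 0.110 in T12 and at 0.0832 and 0 in WT, so that against a floor of 3 counts over the KO group it was at least 354-fold higher. Hoxb6, a marker of posterior lateral plate mesoderm, stood at 13.1 and 15.0 CPM in T48, 0 and 0.0270 in KO, 0.0185 and 0.419 in T12 and 0 in both WT libraries. With a single count in KO its ratio of 1490 has a counting interval of 266 to 58700. Hoxb8, known for trunk patterning and for its use in myeloid cell lines, stood at 14.7 and 11.7 CPM in T48, 0.117 and 0 in KO, 0.0370 and 0.154 in T12 and 0.0277 and 0.119 in WT, a fold of 173 over KO. In all 3 the T48 libraries were above every other library, and each was called (edgeR adjusted p = 4.04e-07, 2.19e-06 and 5.17e-07).

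Hoxb7 formed a dip between its neighbours. It reached 1.33 and 2.45 CPM in T48 and, per length, 1.45 FPKM ± 0.604 (SD, n = 2), against 10.3 ± 0.994 for Hoxb6 on its 3' side and 4.42 ± 0.726 for Hoxb8 on its 5' side. Neither neighbour's libraries overlapped with those of Hoxb7. The active stretch ended at Hoxb9, with 0.358 FPKM ± 0.0273, and Hoxb13, at the far 5' end, had no count in T48.

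Upstream sequence is shown for 5 genes to set promoters of the active stretch beside that of a Hoxa gene that stayed low. These are the 250 bases before the RefSeq start on GRCm38.p6, 5' to 3' on the gene's strand, and capitals mark any match on either strand to TGATNNAT (a Pbx and Hox pair site), TTTATG (a Cdx site) or AGGTCA (the core of a nuclear receptor site). Hoxb1, Hoxb4 and Hoxb8 are the Hoxb genes with a window in the table used, Hoxd9 is the highest Hoxd gene in T48, and Hoxa7 is at most 0.356 CPM in any library.
Hoxb1: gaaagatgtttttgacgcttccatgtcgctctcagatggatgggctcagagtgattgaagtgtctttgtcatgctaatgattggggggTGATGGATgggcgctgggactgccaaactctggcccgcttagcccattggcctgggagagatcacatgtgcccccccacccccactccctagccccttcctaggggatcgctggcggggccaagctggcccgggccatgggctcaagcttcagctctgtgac
Hoxb4: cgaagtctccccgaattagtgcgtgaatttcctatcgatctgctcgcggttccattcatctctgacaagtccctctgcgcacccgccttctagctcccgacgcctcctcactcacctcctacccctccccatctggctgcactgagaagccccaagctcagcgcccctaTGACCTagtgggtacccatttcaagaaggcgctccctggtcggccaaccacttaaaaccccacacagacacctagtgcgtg
Hoxb8: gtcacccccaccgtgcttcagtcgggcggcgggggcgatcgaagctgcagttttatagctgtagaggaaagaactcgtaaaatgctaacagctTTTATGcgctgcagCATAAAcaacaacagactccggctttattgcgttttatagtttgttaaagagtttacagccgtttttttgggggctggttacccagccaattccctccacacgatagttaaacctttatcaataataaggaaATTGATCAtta
Hoxa7: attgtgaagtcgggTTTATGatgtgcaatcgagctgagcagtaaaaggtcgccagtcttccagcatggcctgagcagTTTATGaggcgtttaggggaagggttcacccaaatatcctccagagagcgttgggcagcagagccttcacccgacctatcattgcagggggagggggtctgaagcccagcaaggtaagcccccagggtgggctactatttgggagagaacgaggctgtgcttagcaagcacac
Hoxd9: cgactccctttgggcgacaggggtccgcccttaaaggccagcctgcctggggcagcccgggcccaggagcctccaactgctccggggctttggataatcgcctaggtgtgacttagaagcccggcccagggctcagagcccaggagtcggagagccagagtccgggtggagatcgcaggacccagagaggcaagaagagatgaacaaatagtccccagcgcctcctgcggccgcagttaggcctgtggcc
The Hoxb1 window, chr11:96365508-96365757 (+), held 1 TGATNNAT match, known in the mouse as a site through which Hoxb1 acts on its own gene. The Hoxb4 window, chr11:96318017-96318266 (+), held 1 AGGTCA match. The Hoxb8 window, chr11:96281655-96281904 (+), held 2 TTTATG matches and 1 TGATNNAT match. The Hoxa7 window, chr6:52218574-52218823 (-), also held 2 TTTATG matches, and the Hoxd9 window, chr2:74697513-74697762 (+), held none of the 3 motifs. So the low Hoxa7 and the high Hoxb8 carry the same number of TTTATG letters in this window.

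Over the 24 windows of the 22 matched Hox symbols, 4 held TGATNNAT, 5 held TTTATG and 6 held AGGTCA, or 16.7%, 20.8% and 25.0%. The shares over all 32851 windows of the table were 7.68%, 10.8% and 14.0%. No motif of the 3 overlaps another in the printed windows. A match describes letters in a window and says nothing of binding.

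In the Hoxa cluster 6 of the 9 tested loci were higher in T48, with a gap in the middle of the cluster. Hoxa2, which patterns the second pharyngeal arch, was at 1.31 and 1.18 CPM in T48 and at 0.0586 and 0 in KO, and was called higher (edgeR adjusted p = 0.00232). Hoxa3 was at 0.436 and 0.907 CPM in T48 against 0.117 and 0.135 in KO, a call at the edge of the threshold (edgeR adjusted p = 0.0472) that 10 of its alternatives lost. Hoxa4 to Hoxa9 stayed at or below 0.599 CPM in every library of every group. Hoxa3, Hoxa4, Hoxa5 and Hoxa6 have the same deposited coordinates (52169062 to 52213597), so how reads were split between them is uncertain. Hoxa5, Hoxa7 and Hoxa9 were tested and not called, Hoxa4 had 1 count in T48 and Hoxa6 none. Beyond this gap Hoxa10, a gene of the posterior trunk, limb and uterus, was at 1.42 and 2.40 CPM in T48 and at 0 in both KO libraries, at least 68.0-fold higher (edgeR adjusted p = 7.01e-05). Hoxa13, a gene of the hindgut, the genital tubercle and the allantois, was at 1.28 and 0.760 CPM in T48 and at 0.0439 and 0 in KO, a log2 difference of 5.12 ± 1.29 (edgeR adjusted p = 0.00449), while Hoxa11 beside it had 0 and 8 counts in the T48 libraries.

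In the Hoxd cluster 5 of the 6 tested loci were higher in T48. Hoxd1, at the 3' end, stood at 6.73 and 7.82 CPM in T48, 0.190 and 0.216 in KO, 0.0370 and 0.132 in T12 and 0 and 0.0890 in WT, 36.6-fold over KO. Hoxd9, a trunk and limb gene, stood at 7.68 and 11.2 CPM in T48, 0.146 and 0.486 in KO, 0.130 and 0.397 in T12 and 0.0555 and 0.119 in WT, 35.9-fold over KO. Its neighbour Hoxd8 stood at 3.38 and 2.94 CPM in T48, 0.176 and 0.459 in KO, 0.0740 and 0.529 in T12 and 0.250 and 0.148 in WT, 11.4-fold over KO. These 3 had edgeR adjusted p = 9.73e-06, 9.50e-06 and 0.00299, and in each the T48 libraries were above all 6 others.

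Between these peaks Hoxd3 and Hoxd4 were lower, at 0.290 FPKM ± 0.165 and 0.719 ± 0.225 in T48 (n = 2), yet above KO. Both have the same deposited coordinates (74710044 to 74748271), so how reads were split between them is uncertain. Hoxd3 had no count in KO and was at least 34.4-fold higher, and Hoxd4 was 20.1-fold higher (edgeR adjusted p = 0.00360 and 0.00500). With DESeq2 the Hoxd3 call was lost (adjusted p = 0.158). Beyond Hoxd9, at 4.06 FPKM ± 1.08 in T48, came Hoxd10 at 0.144 ± 0.107, Hoxd11 at 0.0635 ± 0.0898 and Hoxd13 at 0.147 ± 0.0282 (n = 2), and Hoxd12 had no count. Hoxd13 did not pass the test against KO (edgeR adjusted p = 0.689).

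The Hoxc cluster was the weakest in T48 and had its highest locus in the middle. Hoxc8, a thoracic gene, stood at 2.75 and 2.60 CPM in T48, 0.234 and 0.459 in KO, 0.0185 and 0.286 in T12 and 0 in both WT libraries. Hoxc6 stood at 1.25 and 1.57 CPM in T48, 0.102 and 0.486 in KO, 0.148 and 0.242 in T12 and 0.0277 and 0 in WT. Both were higher in T48 than in KO, with log2 differences of 2.97 ± 0.89 and 2.31 ± 0.92 (edgeR adjusted p = 0.0108 and 0.0392). Each call was lost without library a of KO (fitted differences 2.5 and 1.5), and that of Hoxc6 also without either T48 library, with DESeq2 (adjusted p = 0.0625) and with upper-quartile scaling (edgeR adjusted p = 0.0516). Hoxc9, at 0.490 and 0.637 CPM in T48, was not called (edgeR adjusted p = 0.119), and Hoxc4, Hoxc5 and Hoxc10 to Hoxc12 were too low to test.

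**Figure D2:**
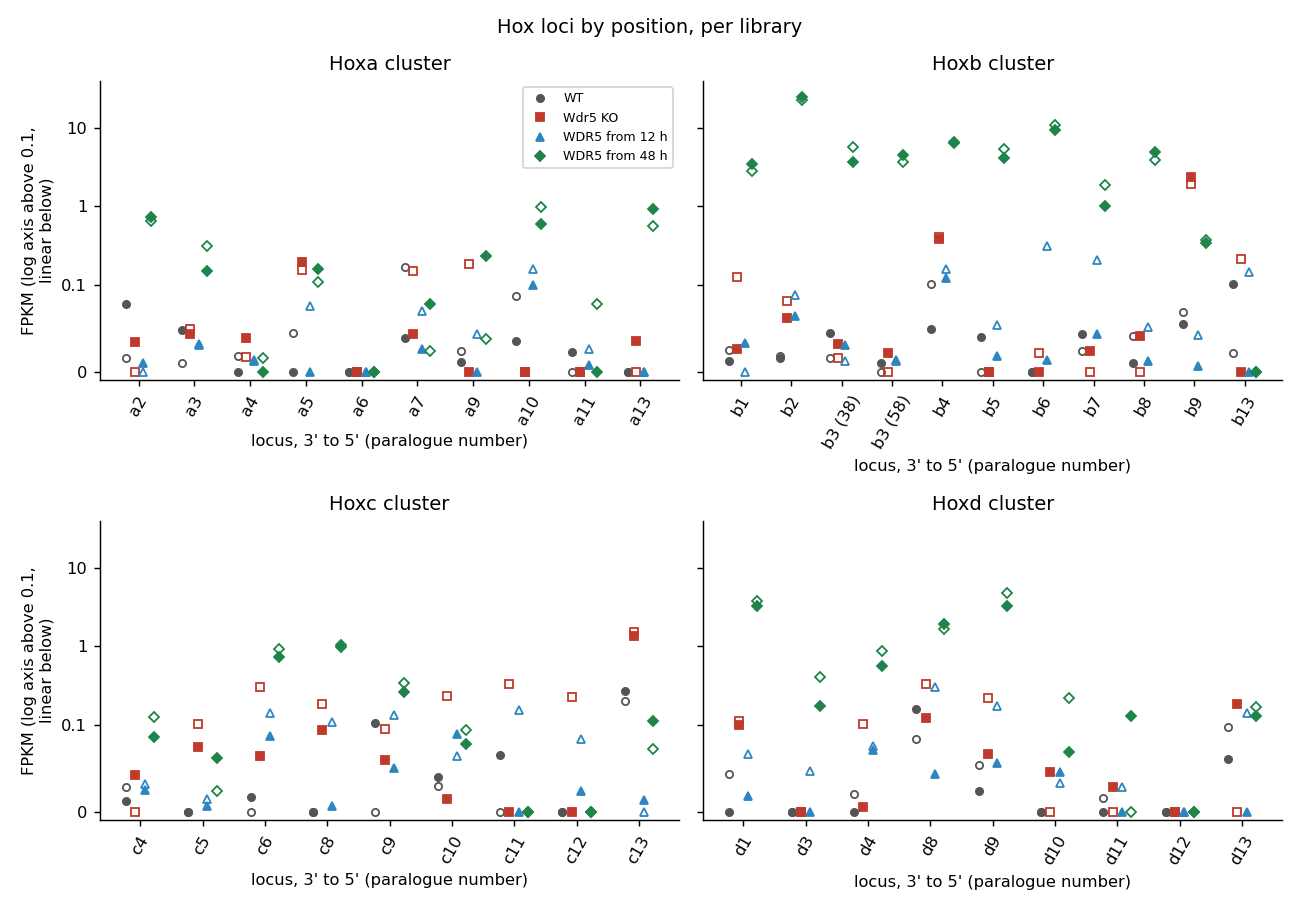
Points show the FPKM in each library of the Hox loci described here, in cluster order from the 3' end, on a log axis that is linear below 0.1; filled points are library a, open points library b, and digits in brackets end the identifiers of loci that share a symbol. T48 runs high from Hoxb1 to Hoxb8 and at Hoxd1, Hoxd8 and Hoxd9, while KO stands highest at Hoxb9 and Hoxc13.

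Ordered by FPKM in T48, Hoxb2 came first at 24.1 (23.2 and 25.1), followed by Hoxb6 at 10.3 (9.55 and 11.0), and both were apart from the next locus. Hoxb4, at 6.57, was apart from Hoxb5. From Hoxb5 at 4.81 through Hoxb3, Hoxb8, Hoxd9 and Hoxd1 to Hoxb1 at 3.20, each locus overlapped with the next. Hoxd8 at 1.80, apart from Hoxb1, and Hoxb7 at 1.45 followed, overlapping in turn, and Hoxc8 at 1.01 was the last locus at 1 FPKM or more.

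Level and position were thus only loosely ordered. Spearman's rho between paralogue number and FPKM over the 41 loci was -0.55 and -0.58 in the T48 libraries, -0.22 and -0.02 in KO, -0.35 and 0.05 in T12 and 0.02 and -0.10 in WT. Within T48 it was -0.72 and -0.71 over the 9 Hoxd loci, -0.46 and -0.53 over the 11 Hoxb loci, -0.31 and -0.49 over the 9 Hoxc loci and -0.34 and -0.37 over the 12 Hoxa loci. These loci share a library and lie beside each other, so rho is a description. Summed by paralogue group, T48 peaked at group 2 (24.8 FPKM ± 1.44), with a further rise at group 6 (11.1 ± 1.13), and fell to 0.102 ± 0.0350 at group 11 and 0 at group 12, before 0.985 ± 0.266 at group 13 (n = 2 each).

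The knockout was compared with WT to ask how KO and WT differed at the clusters at day 6. Among the tested Hox loci 7 were higher in KO and 1 was lower, against 31.7% and 32.4% of all tested loci. All 8 were among the 13 loci that reached the filter without T48, and none of the 16 that reached it only through T48 was called, so the share depends on which loci are counted. With T48 set aside, 6 of the 13 reached the filter only with the KO libraries, which favours a higher KO value, and 3 of these 6 were among the 7. The Hox median difference was 1.73 on the log2 scale, against 0.004 over all tested loci. It was 2.25 over the 13 loci, 3.47 over the 6 among them and 0.82 over the 16, so the median too depends on which loci are counted. Without library a of KO the number higher was 11.

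Per length, the most abundant Hox RNAs of the knockout were Hoxb9 at 2.17 FPKM and Hoxc13 at 1.44, both from the 5' side. Hoxb9, which acts in the rib cage and the thoracic trunk, stood at 6.97 and 5.56 CPM in KO, 0.166 and 0.208 in WT, 0.0185 and 0.132 in T12 and 1.03 and 1.15 in T48. Hoxc13, a gene of the tail and of hair and nails, stood at 3.53 and 3.91 CPM in KO, 0.721 and 0.534 in WT, 0.0370 and 0 in T12 and 0.300 and 0.196 in T48. In both the KO libraries lay above all 6 others, and together they made up 53.8% of the Hox CPM of the knockout.

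Hoxb9 was 34.7-fold and Hoxc13 5.81-fold higher in KO than in WT, with log2 differences of 5.05 ± 0.59 and 2.56 ± 0.59 (edgeR adjusted p = 5.90e-06 and 0.00188). They were also the only 2 tested Hox loci called lower in T48 than in KO, by 5.90-fold and 14.9-fold (edgeR adjusted p = 0.000470 and 0.000124). Hoxc13 already averaged 0.628 CPM ± 0.132 in WT (n = 2), where it had the most reads of any Hox locus.

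Hoxb4, Hoxc6 and Hoxc8 were also among the loci higher in KO. Hoxb4 was 4.99-fold higher (edgeR adjusted p = 0.000167). Hoxc8 had no count in WT and was at least 7.28-fold higher (edgeR adjusted p = 0.00701), and Hoxc6 had a single WT count, a ratio of 16.6 and a counting interval from 2.71 to 680 (edgeR adjusted p = 0.0208). The Hoxc6 call was lost without library b of KO (fitted difference 2.62) or without library b of WT (3.21), and with the first run of each duplicate alone (3.02). Hoxa10 was the 1 locus called lower in KO, at 0 against 0.0832 and 0.208 CPM in WT, at least 5.04-fold (edgeR adjusted p = 0.00854). That call was lost without library b of WT and with limma on log2(FPKM + 0.1) or log2(FPKM + 1). By CPM the leading Hoxd locus of KO was Hoxd8, whose libraries overlap those of WT, and in WT it was Hoxd13, with 6 and 9 counts. None of the 6 tested Hoxd loci was called by edgeR, and 1, Hoxd1, had an unadjusted p under 0.05.

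The KO libraries differed from each other at low 5' loci. Library b held 17 counts of Hoxc10, 10 of Hoxc11, 6 of Hoxc12, 16 of Hoxa9 and 10 of Hoxb13, where library a, which is deeper, held 2, 0, 0, 0 and 0. Hoxd13 went the other way, with 33 counts in library a and 0 in library b. Values of these loci in KO therefore rest mostly on a single library.

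**Figure D3:**
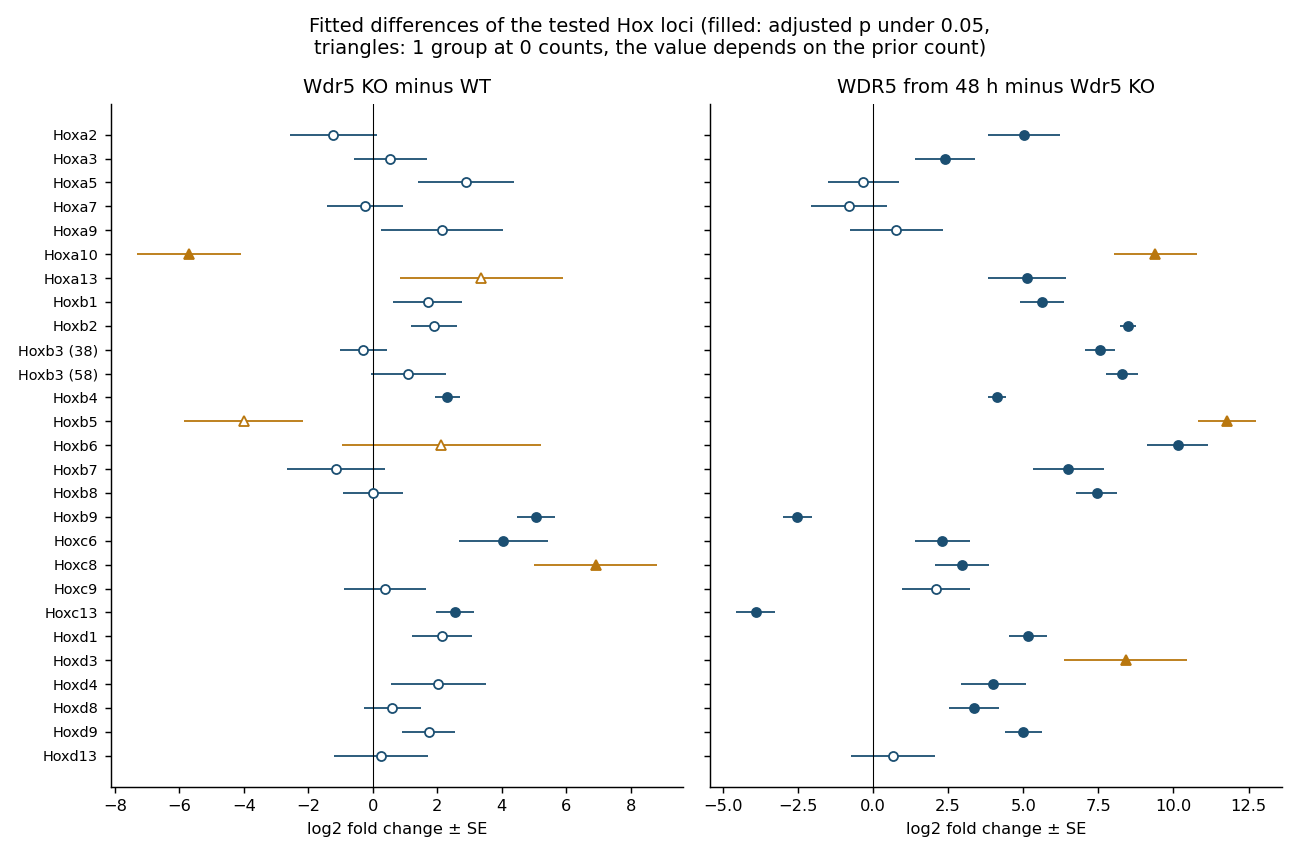
Points show the fitted log2 difference with its SE for the tested Hox loci described here, KO minus WT on the left and T48 minus KO on the right; filled points passed adjusted p under 0.05, and triangles mark loci with 1 group at 0 counts, whose fitted size depends on the prior count. Hoxb9 and Hoxc13 lie to the right of 0 on the left and to the left of 0 on the right, while Hoxb1 to Hoxb8 lie to the right of 0 on the right.

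The named loci on the 5' side of Hoxb9, as far as Atp5g1 and except Hoxb13, were also highest in KO, whereas Hoxb8 on its 3' side was highest in T48. Gm53, a noncoding locus between Hoxb13 and Hoxb9, stood at 8.17 and 10.1 CPM in KO, 0.277 and 0.148 in WT, 0.0740 and 0.330 in T12 and 0.517 and 0.686 in T48. Ttll6, a tubulin glutamylase gene 28.9 kb outside the cluster beyond Hoxb13, stood at 4.86 and 4.40 CPM in KO, 0.582 and 0.148 in WT, 0.111 and 0.375 in T12 and 0 and 0.319 in T48. Both were higher in KO than in WT, with log2 differences of 5.39 ± 0.58 and 3.64 ± 0.89 (edgeR adjusted p = 2.75e-06 and 0.00294). Calcoco2 and Atp5g1, the next 2 named loci, were also higher in KO, by 1.46 ± 0.36 and 1.12 ± 0.24 (edgeR adjusted p = 0.00304 and 0.000985). Hoxb13 itself, in the midst of these loci, had 0 and 10 counts in KO. Skap1, 96.3 kb beyond Hoxb1 on the other side, stood instead at 1.66 and 3.06 CPM in T48 against 0.220 and 0.0809 in KO (edgeR adjusted p = 0.00129).

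**Figure D4:**
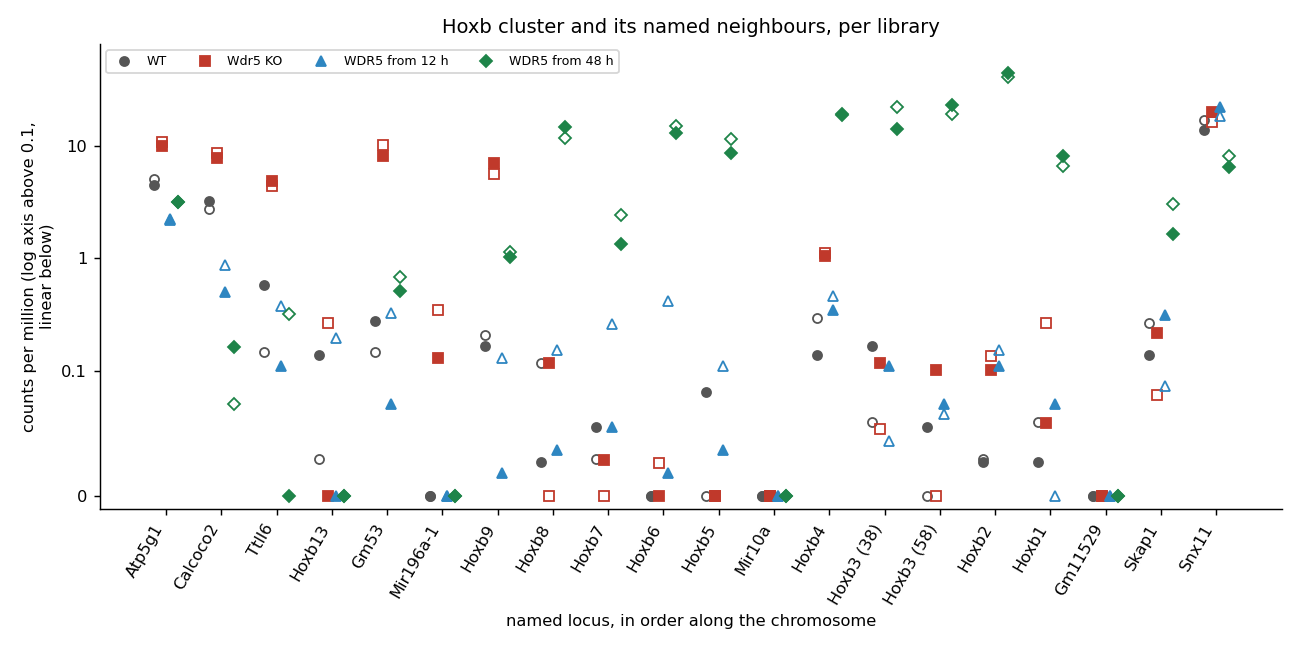
Points show CPM per library for the named loci of the Hoxb region in chromosome order, on a log axis that is linear below 0.1; filled points are library a and open points library b. KO stands above the other groups from Atp5g1 to Hoxb9 except at Hoxb13, and T48 stands above them from Hoxb8 to Hoxb1 except at Mir10a, which has no count.

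Evx1, the even-skipped gene 47.5 kb beyond Hoxa13 that marks the primitive streak, stood at 4.82 and 5.48 CPM in KO and 4.14 and 5.07 in T48. In WT it stood at 0.139 and 0.178 CPM and in T12 at 0.0185 and 0.132, so that KO was 5.00 ± 0.55 above WT on the log2 scale (edgeR adjusted p = 3.58e-06) and T48 did not differ from KO by the test (edgeR adjusted p = 0.747). The noncoding locus 5730457N03Rik lies at the same distance and had 3.09 CPM ± 0.904 in KO and 3.30 ± 0.119 in T48 (n = 2). No source used here gives the strand of the reads, and those of this locus and of Evx1 cannot be told apart. Evx2, the same kind of gene beside Hoxd13, had no count in any library. Lnp, on that side of Hoxd, was lower in KO than in WT by 1.01 ± 0.09 on the log2 scale and Mtx2, beyond Hoxd1, was higher by 0.36 ± 0.12 (edgeR adjusted p = 2.93e-07 and 0.0167).

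The early rescue had a near empty Hox profile. Against KO, 3 tested Hox loci were higher in T12 and 5 lower, where 32.8% and 32.1% of all tested loci were called. All 5 lower loci and 1 of the higher ones were among the 13 that reached the filter without T48. The Hox median difference was -0.46, against -0.009 over all tested loci. It was -1.18 over these 13 loci and 0.15 over the 16 that reached the filter only through T48. Of the 13, 6 needed the KO libraries to reach the filter, which favours a lower T12 value, and 1 of these 6 was called lower. Hoxb9, Hoxc13 and Hoxb4 were among the lower loci, and the Hoxb4 call was lost with only T12 and KO in the fit (edgeR adjusted p = 0.0696). Hoxb9 was 91.9-fold lower (edgeR adjusted p = 1.34e-06), and Hoxc13, with 2 counts in T12, had a ratio of 182 (counting interval 50.1 to 1510). The higher loci were Hoxa10, Hoxb5 and Hoxb6, all at or below 0.419 CPM. Without library b of T12 or library a of KO the number higher was 1, and without library a of T12 it was 5.

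Against WT, no Hox locus was called higher in T12 and 1, Hoxc13, was called lower, against 7.90% and 6.11% of all tested loci. The Hox median difference was 0.70 on the log2 scale, against -0.003 over all tested loci. Over all 41 loci, both T12 libraries were above both WT libraries at 14 and below them at 4. That count is only a description, without the share over all loci. For Hoxc13 the ratio was 31.4, with a counting interval from 8.18 to 267 (edgeR adjusted p = 0.00239). At an unadjusted p under 0.05, 4 were higher. Without library a of T12, 2 loci were higher, and DESeq2 called 1. By CPM, the leading T12 loci of Hoxb, Hoxd and Hoxc were Hoxb4 at 0.407 CPM ± 0.0785, Hoxd8 at 0.301 ± 0.322 and Hoxc6 at 0.195 ± 0.0667 (n = 2). The T12 libraries differed: library b held 302 Hox counts against 169 in library a, and was the higher at 29 loci and the lower at 9. The widest gap was at Hoxb6, with 19 counts against 1. The summed blood markers (6 genes) differed the other way, at 13.6 CPM in library a and 1.85 in library b. Most of that gap was Hba-x (5.15 in a, 0.441 in b) and Hbb-bh1 (7.31 in a, 0.617 in b). The part of blood cells in the Hox values was not tested.

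The late rescue was last set against T12 and WT, 2 comparisons that share the T48 libraries with each other and with the comparison to KO. Against T12, 24 tested loci were higher in T48 and none lower, with 24.9% and 25.3% called over all loci, and 14 of the 24 reached the filter only through T48. Against WT, 23 were higher and none lower, with 23.9% and 23.4% over all loci. Those shares stand for 3858 loci higher and 3769 lower, and upper-quartile scaling gave 3053 and 4791. Over the 13 loci that reached the filter without T48, 10 and 9 were higher and the median differences from T12 and WT were 3.46 and 3.96 on the log2 scale, against -0.031 and -0.039 over all tested loci. The 2 differ at Hoxc13, which was higher in T48 than in T12 but did not pass against WT (edgeR adjusted p = 0.104). Over all 41 loci, both T48 libraries were above both T12 libraries at 29 and below them at 1. They were above both WT libraries at 31 and below them at 2. These counts too are only a description, without the share over all loci. At an unadjusted p under 0.05 edgeR again had 0 lower in both comparisons, and so did DESeq2 after adjustment, while limma on log2(FPKM + 0.1) called 1 lower than WT.

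Partners and regulators were read from lists chosen with earlier results of these data known. Their counts stand against the shares of all tested loci called, which were 31.7% higher and 32.4% lower in KO against WT, 32.8% and 32.1% in T12 against KO, and 34.2% and 33.2% in T48 against KO. The TALE cofactors Meis, Pbx and Pknox bind DNA together with Hox proteins. Of the 9, KO had 1 higher and 8 lower than WT, T12 had 8 higher and 1 lower than KO, and T48 had 7 higher and 2 lower than KO, with median log2 differences of -2.42, 2.46 and 2.05. Meis1 stood at 103 CPM ± 13.6 in WT, 9.01 ± 1.04 in KO, 69.1 ± 8.77 in T12 and 80.5 ± 1.37 in T48 (n = 2). Cofactors were thus abundant in WT and T12, where Hox RNA was near 0, and in T48, where it was high. Pknox1 was the member higher in KO.

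Among 12 genes of the posterior axis 9 were tested, with 5 higher and 2 lower in KO than in WT and 3 higher and 3 lower in T48 than in KO, the latter close to the shares of 34.2% and 33.2% over all loci. Cdx2, a caudal factor that binds Hox clusters in the tail end of the embryo, stood at 0.704, 4.60, 1.19 and 16.1 CPM on average in WT, KO, T12 and T48, and T48 was above KO by 1.81 ± 0.26 on the log2 scale (edgeR adjusted p = 4.19e-05). Cdx1 and Cdx4 were too low to test. Wnt8a, Nkx1-2 and T, genes of the primitive streak and its posterior successors, averaged 32.0, 9.54 and 4.01 CPM in KO but 0.118, 0.999 and 0.252 in T48, and all 3 were lower in T48 (edgeR adjusted p = 9.17e-10, 0.000268 and 0.00222). Wnt5a, which drives axis extension, was higher in T48, 62.0 against 7.79 CPM (edgeR adjusted p = 3.96e-08).

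Retinoic acid switches on 3' Hox genes, and of 12 genes that make, break or sense it 7 were higher and 4 lower in KO than in WT, and 4 higher and 5 lower in T48 than in KO, the latter not far from the shares over all loci. The genes of synthesis did not move one way. Cyp26a1, which breaks retinoic acid down, averaged 125 CPM in KO and 21.6 in T48, and Aldh1a2, the mesodermal enzyme that makes it, 0.244 and 2.33 (edgeR adjusted p = 1.33e-10 and 0.000203). Aldh1a1 and Aldh1a3, which also make retinoic acid, were instead lower in T48, at 0.0490 against 9.19 CPM and 0.271 against 0.947 (edgeR adjusted p = 2.47e-07 and 4.38e-05). In WT and T12, where Hox RNA was near 0, Cyp26a1 averaged 23.0 and 18.5 CPM and Aldh1a2 2.73 and 0.840. Neither gene differed between T48 and WT by the test (edgeR adjusted p = 0.475 and 0.733). Aldh1a1 averaged 3.22 and 2.92 CPM in WT and T12, and Aldh1a3 131 and 161. Low Cyp26a1 was thus not particular to T48. Rarb, a receptor gene that retinoic acid itself induces, averaged 8.23 CPM in T48 and 2.86 in KO, beside 1.41 in WT and 2.03 in T12. It was higher in T48 than in KO by 1.52 ± 0.29 on the log2 scale (edgeR adjusted p = 0.000493). Rara and the binding protein gene Crabp1 were also higher, and the receptor gene Rarg, at 54.8 against 73.9 CPM, and Dhrs3 were lower. Of 5 hindbrain regulators of Hox genes, 1 was higher and 2 were lower in T48 than in KO. Gbx2 was among the lower, at 1.13 against 6.75 CPM (edgeR adjusted p = 0.000244), and Egr2 and Gbx1 did not pass.

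Of 22 chromatin genes that act on Hox clusters, Wdr5 among them, 9 were higher and 10 lower in KO than in WT, and 10 higher and 7 lower in T48 than in KO, where the shares over all loci were 31.7% and 32.4%, and 34.2% and 33.2%. Kmt2a (Mll1), a methyltransferase of these clusters, moved little, by 0.24 ± 0.08 in KO against WT (edgeR adjusted p = 0.0192). Other members moved more. Kmt2b (Mll2) moved by 0.87 ± 0.10, Ash2l by 0.80 ± 0.07 and Psip1 by -1.06 ± 0.08 (edgeR adjusted p = 3.64e-06, 3.53e-07 and 1.5e-07). The differences of Men1, Rbbp5 and Dpy30 were -0.19, -0.36 and 0.30. The Polycomb genes did not move one way. Ezh2, a Polycomb methyltransferase, averaged 118 CPM in KO against 312 in WT and 250 in T48. Ezh1, the related methyltransferase, averaged 54.8 CPM in KO against 22.8 in WT and 45.5 in T48. Cbx7, a Polycomb reader, averaged 66.9 in KO against 21.3 in WT and 7.31 in T48. Among 16 noncoding RNAs of the clusters 10 had a locus and none was tested. Mir196a-1, next to Hoxb9, had 0.132 and 0.351 CPM in KO and no count elsewhere, and Hotair and the Mir10 loci were at or near 0. The kit and table are not made for mature miRNAs.

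Several sets of cell type markers were highest in T48, where Hox RNA was highest, but the sets did not all follow the Hox values. Summed cardiac and lateral plate markers (7 genes) ran from 2380 to 2450 CPM in T48, 228 to 239 in KO, 92.5 to 107 in T12 and 74.9 to 78.6 in WT, and all 8 of their loci were higher in T48 than in KO. Fibroblast markers (8 genes) ran from 752 to 832 CPM in T48 and 18.2 to 20.0 in KO, with 5 higher and 1 lower in T48. Their sums in WT (72.8 to 75.6) and T12 (98.7 to 124) were above those of KO. Endothelial markers (5 genes) ran from 726 to 757 CPM in T48 and 120 to 129 in KO, all 5 higher in T48. In WT they ran from 93.1 to 95.5 CPM and in T12 from 139 to 148. Blood markers ran from 53.7 to 55.6 CPM in T48, nearly all of it Tal1 at 52.7. Allantois markers (5 genes, 2 of them also in the cardiac list) ran from 1250 to 1330 CPM in T48 and 63.3 to 68.5 in KO, with 5 of their 6 loci higher and 1 lower. Most of that sum was Hand1, which the cardiac list shares, and the lower one was Tbx4, at 1.93 against 15.3 CPM (edgeR adjusted p = 6.23e-06). Hindbrain and spinal cord markers (6 genes) ran from 97.2 to 102 CPM in T48 and 72.8 to 73.1 in KO, most of it Irx3, with Olig2 at 0 in T48.

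Paraxial mesoderm markers (6 genes) were low, from 6.89 to 7.06 CPM in T48 and 3.83 to 4.41 in KO, with Msgn1 and Pax1 at 0 in T48. Of the 4 tested, 1 was higher and 1 lower in T48 than in KO. Foxc2 averaged 5.29 CPM in T48 against 0.0805 in KO, and Tcf15 0.727 against 2.92 (edgeR adjusted p = 2.63e-05 and 0.0031). Eye field markers (6 genes) ran from 1160 to 1170 CPM in WT and 1410 to 1450 in T12, and from 6.77 to 10.6 in KO and 9.26 to 11.1 in T48. Pluripotency markers (4 genes) ran from 850 to 906 CPM in KO and 154 to 168 in T48, and endoderm markers (5 genes) from 234 to 238 and 79.1 to 85.5. The groups with Hox RNA were thus the groups without eye field markers. The part of cell make-up in the Hox differences was not tested.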

How the data were processed

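RNA from 16 samples in 4 groups was sequenced from Illumina TruSeq libraries. The submitters' processing notes name the mm10 build, Cufflinks 2.2.1 and TopHat2 2.1.1, beside deepTools and SAMtools 1.5. Annotation, strand and normalization settings were not given in the sources used here. The authors deposited an estimated count and an FPKM (fragments scaled by transcript length and library size) per locus and column. The 8 loci that the deposited table marks as having too many fragments, none a Hox locus, were left out by a list of their identifiers. Another 80 columns of per-sample values (such as confidence bounds) were not used.

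Deposited counts are whole multiples of a factor per column (within 0.02), which was divided out before rounding to whole numbers. Column names give the group only. Columns of 1 duplicate were recognised by a chi-square test of their counts and summed, so n = 2 per group, and "a" and "b" are names only. Loci with no name held 3.16% to 6.12% of counts and were left out. The labels call the duplicates biological, and p-values measure only the spread between these samples.

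edgeR 4.0.16 (R 4.3.3) was fitted to all 4 groups with TMM scaling, filterByExpr (here 0.237 CPM in at least 2 libraries) and quasi-likelihood tests, with Benjamini-Hochberg adjustment over 16130 loci in each of 6 comparisons and a threshold of 0.05. The coefficient of biological variation was 12.6%, with 4 residual degrees of freedom. CPM uses the TMM-scaled library size. SE is the log2 difference divided by the square root of F. Folds against a group at 0 use a floor of 3 counts over the group, and groups with 1 to 3 counts get a counting interval. Both cover counting error only. Alternatives used DESeq2 1.42.0 and limma 3.58.1 (pseudocounts 1 and 0.1). The scripts were tested on simulated data.

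The members and gene lists were chosen with earlier results of these data known. Every Hox locus was accounted for, with all libraries given for loci at 5 CPM or more in a group and for the leading locus of each cluster and group, and loci called in KO against WT named, except that some items are not reported here. Counts, sums and shares cover all 41 loci. Other genes come from those lists and from the 3 nearest named loci beside each cluster. Promoter windows of 250 bases came from RefSeq (GRCm38.p6), where 22 of 39 Hox symbols matched.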

Additional observations from a re-analysis of the deposited data

Results flagged for a closer look

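The 2 rescue times differed at the Hox loci named here under the edgeR test of T48 against T12, both measured in the same knockout clone. All values are fitted log2 differences, T48 minus T12, and a group with 0 or few counts makes them depend on the prior count. In Hoxb they were 7.44 for Hoxb1, 8.30 for Hoxb2, 7.77 and 8.17 for the Hoxb3 loci, 5.55 for Hoxb4, 7.08 for Hoxb5, 6.06 for Hoxb6, 3.57 for Hoxb7, 7.13 for Hoxb8 and 3.88 for Hoxb9. In Hoxa they were 6.61 for Hoxa2, 2.86 for Hoxa3, 2.63 for Hoxa10 and 8.49 for Hoxa13. In Hoxc they were 2.84 for Hoxc6, 4.15 for Hoxc8 and 3.46 for Hoxc13. In Hoxd they were 6.43 for Hoxd1, 3.65 for Hoxd3, 3.28 for Hoxd4, 3.40 for Hoxd8 and 5.18 for Hoxd9. Some of these calls were lost under an alternative. Those of Hoxd3, Hoxd4, Hoxa3, Hoxa10, Hoxb7 and Hoxc6 were each lost in 2 or more of the fits that left out a single library. With DESeq2 the Hoxd3 and Hoxa3 calls were lost (adjusted p = 0.557 and 0.0676), without the low-count filter that of Hoxa3 (edgeR adjusted p = 0.124), and with limma on log2(FPKM + 1) that of Hoxc13 (limma adjusted p = 0.203).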

How the results depend on the processing

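The 88 calls of single Hox loci kept their direction under every alternative run, with 1145 recomputed values on the same side of the threshold and 78 no longer past it. Loci higher in KO than WT numbered 6 to 11 when single libraries were left out. The count lower in KO than WT was 2 with no filter, and 0 with only those groups in the fit and with limma at either pseudocount. Loci higher in T12 than KO numbered 1 with the first run of each duplicate alone, 1 with only those groups, 0 with limma at a pseudocount of 1, 1 at 0.1, and 1 to 5 with single libraries left out. Without loci that share a symbol, 3 were lower in T12 than KO. Loci higher in T12 than WT numbered 2 with no filter, 1 with the deposited factor kept, 1 with DESeq2, and 0 to 2 with single libraries left out. With limma at 0.1, 1 locus was lower in T48 than WT. The cause of these changes was not tested. Upper-quartile scaling moved the median of all loci to -0.15, -0.12 and -0.16 on the log2 scale for T48 against KO, T12 and WT. No paired analysis was possible because the columns carry no replicate numbers. With 1 library left out of a group, the lone library is assumed to vary like the others. At 121 to 302 Hox counts a library, differences among WT and T12 loci were mostly not detectable.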
